A study of Mus musculus with 6 samples.

Results

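The transcription factors that define the follicular cell of the thyroid were examined in mice with and without pendrin, the anion exchanger encoded by Slc26a4. The set held 5 genes, Nkx2-1, Pax8, Hhex, Glis3 and Cited1. Their members were all probe sets that the platform annotation gives to 1 of these genes alone, which came to 6 of the 45101 probe sets of the array, with 2 for Pax8 and 1 for each of the others. Thyroid RNA of 6 mouse samples taken at postnatal day 15 was hybridized to Affymetrix mouse expression arrays. The 3 controls were Slc26a4 heterozygotes (arrays 1, 3 and 5) and the other 3 samples were Slc26a4 knockouts (arrays 2, 4 and 6), so every sample carried at least 1 altered allele and no wild-type thyroid was measured. The glands were microdissected and the RNA was amplified with NuGEN's Ovation method, per the labels. The strain, the sex, the part of Slc26a4 that was removed and whether each array stands for 1 animal were not found in the labels. The p-values therefore rest on the spread among these 6 samples, part of which may be technical. In limma, p-values and intervals also draw on the spread of other probe sets of similar brightness.

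The thyroid bud arises from pharyngeal endoderm in cells that express the homeodomain proteins Nkx2-1 and Hhex and the paired-domain protein Pax8. The same factors stay on in the adult follicular cell, where Nkx2-1 and Pax8 bind the control regions of the thyroglobulin gene. Glis3, a zinc finger protein of the Gli-related family, is needed for hormone synthesis when thyrotropin rises, and the iodide symporter gene is among its targets. Cited1 does not bind DNA by itself and acts as a coactivator through the acetyltransferases p300 and CBP, which Ep300 and Crebbp encode. Nkx2-1 is also present in the calcitonin-making C cells and in airway epithelium, and Hhex in endothelium and B cells, so a whole-gland signal of either gene can have several sources.

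The regulatory sequence in front of the steadiest and of the most variable of these genes is shown first, with that of Hhex for contrast. The steadiness is that of the signals described further on, and its relation to these sequences was not tested. Each run is the 250 bases before the annotated start in RefSeq on assembly GRCm38.p6, read 5′ to 3′ on the strand of the gene, with CpG dinucleotides and the letters TATAAA in capitals. Windows were found for 5 of the 5 genes. They lie at chr12:56536909-56537158 on the minus strand for Nkx2-1, at chr19:37434591-37434840 on the plus strand for Hhex and at chrX:102252182-102252431 on the minus strand for Cited1.

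Nkx2-1: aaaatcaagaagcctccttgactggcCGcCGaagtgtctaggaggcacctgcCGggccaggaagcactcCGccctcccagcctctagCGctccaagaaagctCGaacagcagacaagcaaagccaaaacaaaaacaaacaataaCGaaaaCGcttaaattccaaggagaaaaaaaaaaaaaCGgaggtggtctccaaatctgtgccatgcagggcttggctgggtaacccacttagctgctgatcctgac
Hhex: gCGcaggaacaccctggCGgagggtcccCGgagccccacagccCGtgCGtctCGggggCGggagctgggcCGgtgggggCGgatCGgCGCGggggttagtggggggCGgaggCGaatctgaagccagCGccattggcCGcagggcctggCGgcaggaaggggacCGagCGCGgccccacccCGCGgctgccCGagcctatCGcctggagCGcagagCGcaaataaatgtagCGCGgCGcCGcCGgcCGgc
Cited1: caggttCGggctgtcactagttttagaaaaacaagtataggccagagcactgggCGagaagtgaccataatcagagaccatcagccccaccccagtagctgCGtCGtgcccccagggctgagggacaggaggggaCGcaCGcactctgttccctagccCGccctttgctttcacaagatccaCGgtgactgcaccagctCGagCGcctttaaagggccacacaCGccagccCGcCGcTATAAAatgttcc

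The 3 windows differ in base composition. The window of Hhex has 76.0% G and C and 32 CpG dinucleotides, that of Cited1 shown 58.0% and 13, and that of Nkx2-1 50.8% and 9. The windows of Glis3 and Pax8, which are not shown, have 75.6% and 24 and 60.4% and 6. The median over 32851 promoter windows of the same length is 52.4% and 6. TATAAA, searched on both strands, occurs in the window of Cited1 shown, 13 bases before the start, and in 12.4% of all windows. Cited1 has 3 annotated starts, and the window of the outermost one is shown. Of the other windows, chrX:102250777-102251026 has 65.2% G and C, 30 CpG dinucleotides and no TATAAA, and chrX:102251844-102252093 has 57.2%, 9 and TATAAA at 115 bases before its start. Which start these thyroids use was not analysed here. The Nkx2 family core TCAAGTG, searched in the same way, occurs in 2.68% of all windows and in no window of the 5 genes, which says only that these letters are not in these 250 bases. Among the thyroid function genes listed below it occurs in the windows of Iyd, Slc5a8 and Thrsp.

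The labelled tissue showed its markers on every array. Of 9 thyrocyte markers listed, 8 had a probe set of their own and all 8 were brighter than background on all 6 arrays, with summed signals of 34580 to 42090 on heterozygous and 33550 to 40740 on knockout arrays. Background here is a signal of 22.9, the brightest value of 27 control probe sets for Bacillus transcripts on any array. Other tissue was present too and varied by array. Parathyroid markers were lowest on heterozygous 1, where Pth read 165.2 against 2788 to 11060 on the other 5 arrays. Skeletal muscle markers summed to 20530 to 36910 on heterozygous arrays and to 37290, 17450 and 6427 on knockout 2, 4 and 6. The thymic enzyme Dntt read 1779 on knockout 4 and 6.09 to 24.5 elsewhere. Knockout 6 also correlated least with the other arrays over all tested probe sets (r = 0.948 to 0.967, against a highest r of 0.985 or 0.986 for each of the others). The only Slc26a4 probe set named by the annotation, 1419725_at, lay under background on all 6 arrays (7.24 ± 4.24 in heterozygous and 8.36 ± 6.86 in knockout samples, SD, n = 3), so it does not check the genotype labels.

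All 6 probe sets of the transcription factors were brighter than background on every array and passed the filter on dim probe sets. No difference between genotypes was called. At an adjusted p of 0.05 (limma, Benjamini-Hochberg over 27022 probe sets) 0 of the 6 were called. The same count was 0 over the whole array (0%), with 138 probe sets, or 0.511%, at an unadjusted p under 0.05 by limma (283 by a test without shared variance, which also called 0), and with 0 of the 6 factor probe sets among the 138. A share of 0.511% is under what a threshold of 0.05 would give with no differences at all. Why the share was this low was not tested, and the lack of calls does not show equal expression. Without knockout 2 the count was 934 (limma, unadjusted p under 0.05). Knockout and heterozygous signals overlapped for all 6 probe sets. Over the whole array, 3.68% of the probe sets had groups that did not overlap. The intervals below say how large a difference these 6 arrays leave room for.

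Nkx2-1, also called Ttf-1, was the steadiest of the factors. Probe set 1422346_at, annotated to a RefSeq transcript, gave signals of 192.2, 166.5 and 179.5 in heterozygous samples 1, 3 and 5 and of 164.4, 160.6 and 175.4 in knockout samples 2, 4 and 6. The highest array was 1.20 times the lowest, and knockout 6 lay above heterozygous 3. The means were 179.4 ± 12.9 and 166.8 ± 7.67 (SD, n = 3), a log2 difference of -0.09 with an SE of 0.16 (adjusted p = 1.0 by limma) with a 95% interval of -0.46 to 0.28. As a fold, the interval runs from 0.725 to 1.21. Its width comes in part from other probe sets of similar brightness. Fitted without the intensity trend, the SE was 0.11 and the interval -0.37 to 0.18 (limma). The residual spread of Nkx2-1 was 0.079 on the log2 scale, and 1.82% of the 4624 tested probe sets within 0.5 log2 units of its mean were steadier. Tissue that also expresses Nkx2-1 moved more than this signal did. The C cell markers summed to 5596 to 11370 on heterozygous and 4169 to 9060 on knockout arrays, with 7 of 8 above background throughout. Their secretory granule protein secretogranin II (Scg2) read 5259 on heterozygous 1 and 1845 on knockout 6. Of 8 airway and lung markers 4 were above background on all arrays, among them the club cell secretoglobin Scgb1a1 at 1162 to 3181, while the cilia factor Foxj1 was under background on all 6. The part of these cells in the Nkx2-1 signal was not tested. Fewer cells of a type and less RNA per cell cannot be told apart in such samples.

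Pax8, which drives the thyroglobulin and symporter genes, was read by 2 probe sets that did not follow each other. The bright one, 1418208_at, annotated to a RefSeq transcript, read 3402, 2889 and 2746 on heterozygous 1, 3 and 5 and 2849, 2431 and 2895 on knockout 2, 4 and 6. Heterozygous 1 was the highest and knockout 4 the lowest, and the other 4 arrays lay within 2746 to 2895. The means were 3012 ± 345 and 2725 ± 255 (SD, n = 3), a log2 difference of -0.14 with an SE of 0.11 (adjusted p = 1.0 by limma) with an interval of -0.41 to 0.12. Without heterozygous 1 the difference was -0.05. It was -0.26 when arrays were weighted by their residual spread, with an interval of -0.51 to -0.02 and an adjusted p of 0.959 (limma). Under these weights 915 of the 27022 tested probe sets had an unadjusted p under 0.05, against 138 in the main fit (limma).

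The dim Pax8 probe set, 1446561_at, is annotated to a single RIKEN sequence tag. It read 65.6, 98.3 and 90.3 on heterozygous 1, 3 and 5 and 61.6, 56.4 and 129.7 on knockout 2, 4 and 6. Knockout 6 was the highest of all 6 arrays and knockout 4 the lowest. The means were 84.7 ± 17.0 and 82.6 ± 40.9, a log2 difference of -0.09 with an interval of -0.80 to 0.62 (limma, adjusted p = 1.0). It was -0.41 without knockout 6 and 0.09 without knockout 4. Where in the Pax8 gene this tag lies was not analysed here.

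Hhex, a repressor needed to keep the early thyroid bud, was the only factor with the higher mean in knockouts. Probe set 1423319_at read 2227, 2517 and 1935 on heterozygous 1, 3 and 5 and 2505, 2388 and 2083 on knockout 2, 4 and 6. Heterozygous arrays held both the highest and the lowest value. The means were 2227 ± 291 and 2325 ± 218, a log2 difference of 0.07 with an SE of 0.12 (adjusted p = 1.0 by limma) with an interval of -0.22 to 0.35. Without heterozygous 5 the difference was -0.03. Endothelial markers, which stand beside Hhex because blood vessel cells express it, were all 8 above background on every array and summed to 7067 to 8032 on heterozygous and 7402 to 8653 on knockout arrays. Of 5 B cell markers with a probe set 3 were above background on all arrays. Cd79b read 242.9 to 460.9, Cd79a exceeded background on 1 array (27.6 on heterozygous 5), and the list summed to 411.8 to 577.7 and 351.6 to 516.1. The part of either cell type in the Hhex signal was not tested.

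Glis3 had almost equal group means and a wide spread within each genotype. Probe set 1430353_at read 938.0, 787.2 and 664.1 on heterozygous 1, 3 and 5 and 1003, 722.1 and 640.2 on knockout 2, 4 and 6. Arrays 1 and 2 were the highest and arrays 5 and 6 the lowest, so that the genotypes interleaved. The means were 796.4 ± 137.2 and 788.5 ± 190.4, a log2 difference of -0.03 with an SE of 0.20 (adjusted p = 1.0 by limma) with an interval of -0.48 to 0.43. The residual spread was 0.29 on the log2 scale, and 80.9% of the 4079 tested probe sets of similar mean were steadier. The sign of the difference depended on single arrays and was positive, with 0.10 without heterozygous 1, 0.02 without knockout 4 and 0.11 without knockout 6.

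Cited1 varied most among arrays, with a residual spread of 0.51 on the log2 scale. Probe set 1449031_at read 138.9, 58.4 and 45.3 on heterozygous 1, 3 and 5 and 68.5, 49.2 and 62.8 on knockout 2, 4 and 6. Heterozygous 1 stood at more than double the next array, and the other heterozygous samples lay within or under the knockout range. The means were 80.9 ± 50.7 and 60.2 ± 9.88, a log2 difference of -0.23 with an SE of 0.35 (adjusted p = 1.0 by limma) with an interval of -1.05 to 0.58. Without heterozygous 1 the difference was 0.16, with an interval of -0.49 to 0.82. Heterozygous 1 was also the array with the lowest parathyroid and the highest C cell markers (a mean deviation of -2.44 and 0.64 on the log2 scale), and the part of these tissues in the Cited1 signal was not tested.

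**Figure D1:**
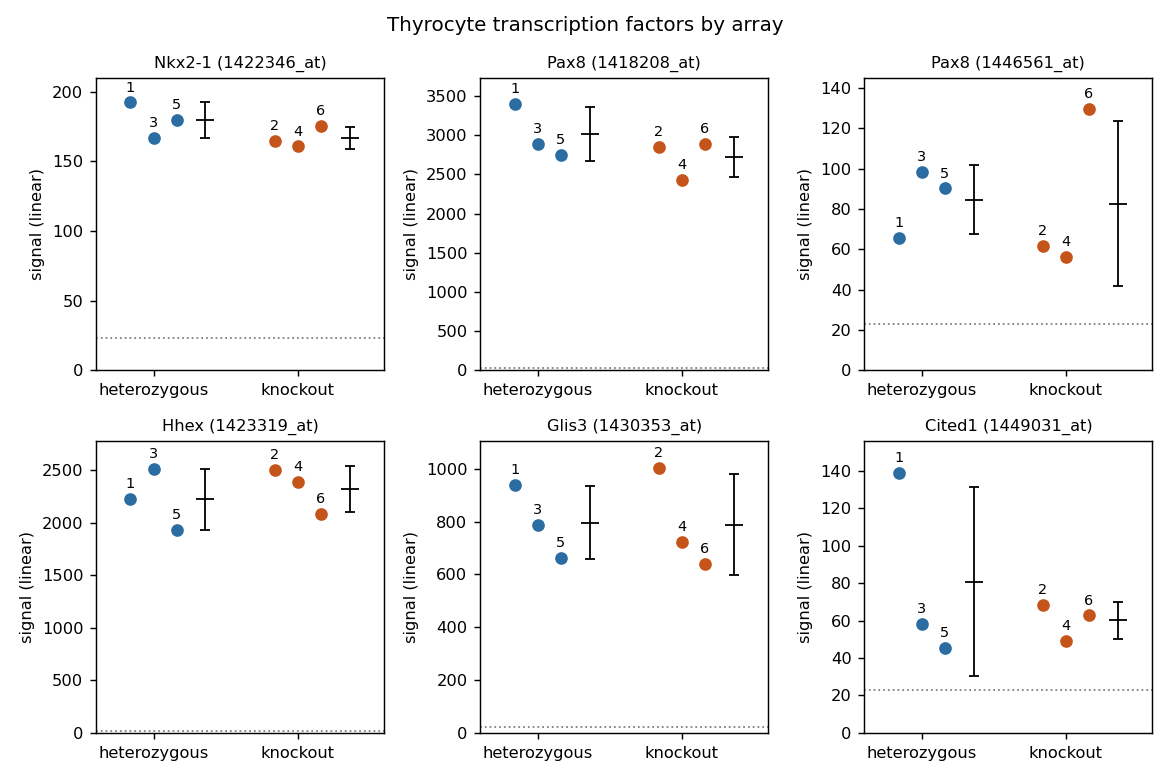
Signals of the 6 probe sets on a linear axis from 0, by genotype. Points are arrays labelled with their sample number, the bar beside each group is the mean with its SD (n = 3), and the dotted line is the background of 22.9. The groups overlap in every panel, Nkx2-1 lies between 160.6 and 192.2 on all arrays, and the Cited1 value of 138.9 on heterozygous 1 stands alone.

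Of the 6 probe sets, that of Glis3 had the highest correlation with the follicular cell markers across arrays. The thyrocyte markers (Tg, Tshr, Slc5a5, Dio1, Iyd, Cdh16, Duoxa2 and Slc26a7), averaged as log2 deviations, stood at 0.21 and 0.25 on arrays 1 and 2, at 0.01 and -0.08 on arrays 3 and 4 and at -0.21 and -0.18 on arrays 5 and 6. Glis3 followed this order with Pearson's r = 0.993 (exact permutation p = 0.00278, two-sided) and Spearman's rho = 0.943 (exact permutation p = 0.0167) over 6 arrays. Without heterozygous 1 and knockout 2, the arrays farthest from the median of the markers, r was 0.969. The order was the same among the 3 heterozygous and among the 3 knockout arrays. Each of the 6 probe sets was set against thyrocyte, C cell and endothelial markers, which makes 18 relations, and after adjustment over them the p for r was 0.05 and that for rho 0.2, so neither passed below the threshold of 0.05. Of the 27013 other tested probe sets, 3 (0.0111%) had an r with the markers at least as high, 1 of them without a gene symbol and the others in Repin1 and Kif21a. Glis3 was singled out as the highest of the 6 probe sets, so this rank is no independent support. The permutation takes the 6 arrays as exchangeable, while Glis3 and the markers both fell from arrays 1 and 2 to arrays 5 and 6.

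The iodide symporter Slc5a5, a Glis3 target, read 2802, 2131 and 1291 on heterozygous 1, 3 and 5 and 3400, 2136 and 1701 on knockout 2, 4 and 6. The deiodinase Dio1, chosen after its values were seen, read 4832, 3875 and 3377 and then 5090, 3660 and 2739. Both belong to the marker list above and ranked the 3 arrays of each genotype as Glis3 did, as did 4 of the 8 markers in all, with Iyd and Slc26a7. The other 4 did not. Thyroglobulin was lowest of all arrays on knockout 2, Tshr and Duoxa2 were higher on knockout 6 than on knockout 4, and Cdh16 was higher on heterozygous 3 than on heterozygous 1. Glis3 also followed the C cell markers (r = 0.934, exact permutation p = 0.00972, adjusted 0.0875; rho = 0.886, adjusted p = 0.2; r = 0.968 without heterozygous 1 and knockout 6). The C cell list stood at 0.64, 0.07 and -0.24 on heterozygous 1, 3 and 5 and at 0.38, -0.25 and -0.60 on knockout 2, 4 and 6. The skeletal muscle list stood at 0.93, 0.31 and -0.10 and then at 0.97, -0.33 and -1.78. Both ranked the arrays of each genotype as the thyrocyte list did, with an r against it of 0.926 for C cell and 0.823 for muscle markers. The part of tissue content in the Glis3 signal was not tested. A scaling to the thyrocyte markers moved the log2 difference of every factor probe set by the same 0.011, to -0.01 for Glis3. Such a scaling cannot measure that part. These relations were computed after the signals had been seen.

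The other factors gave lower values, and the differences between the correlations were not tested. With the thyrocyte markers r was 0.078 for Nkx2-1 (rho = -0.2), 0.523 for the bright Pax8 probe set (rho = 0.314), -0.609 for the dim one (rho = -0.429), 0.645 for Hhex (rho = 0.714) and 0.698 for Cited1 (rho = 0.771). The adjusted exact permutation p lay between 0.211 and 0.892 for r and between 0.37 and 0.756 for rho. Between 14.1% and 80.6% of tested probe sets had an r at least as high as these. Without heterozygous 1 and knockout 2 the 5 values of r were, in the same order, -0.774, -0.059, -0.298, 0.968 and 0.262, so those of Nkx2-1, Pax8, Hhex and Cited1 depend on that pair of arrays. Against the endothelial markers r was -0.907 for Nkx2-1 (rho = -0.886) and -0.906 for the bright Pax8 probe set (rho = -0.771). The adjusted exact permutation p was 0.0917 and 0.131 for r and 0.2 and 0.37 for rho. Without heterozygous 1 and knockout 4 the value for Pax8 was -0.086, so it rests on that pair, and for Nkx2-1 it was -0.615.

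**Figure D2:**
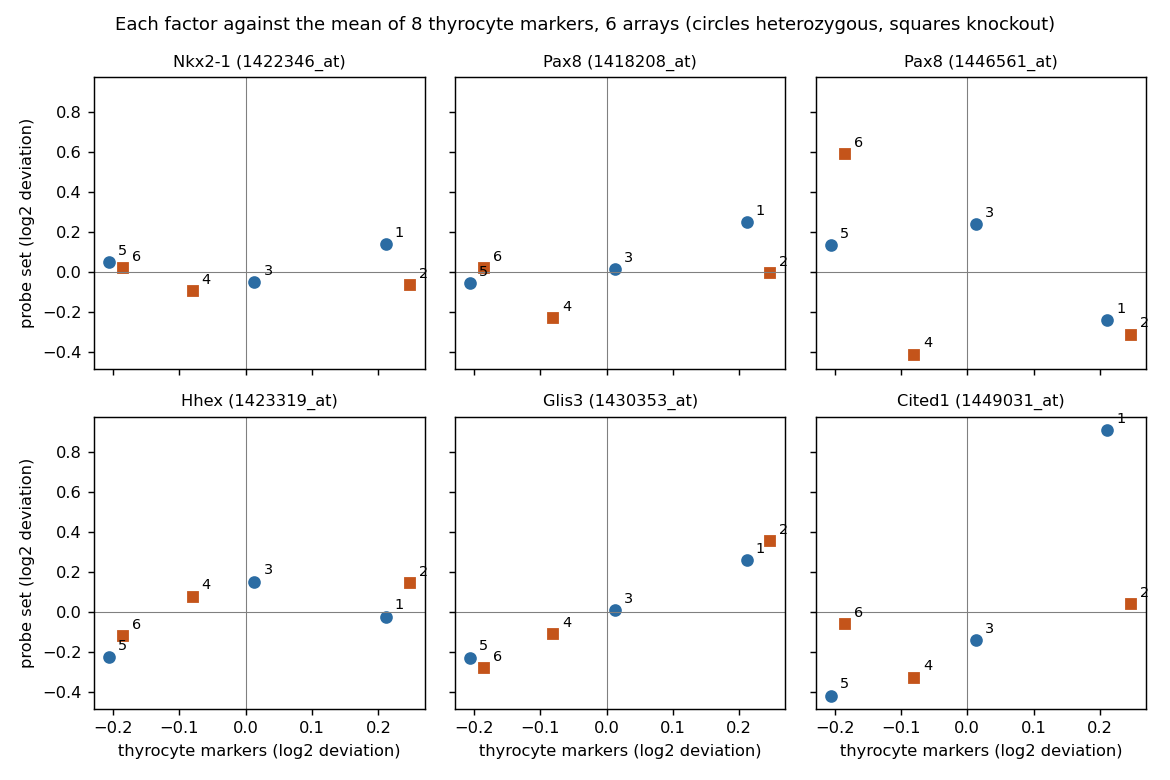
Log2 deviation of each probe set from its 6-array mean (vertical) against the mean log2 deviation of 8 thyrocyte markers (horizontal). Circles are heterozygous and squares knockout arrays, labelled with sample numbers. Glis3 lies close to a line (r = 0.993), Nkx2-1 stays near 0 at every marker level, and Cited1 is set apart by heterozygous 1.

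The genes listed for thyroid function, several of them targets of these factors, were not called by genotype either. Of 20 thyroid function genes listed, 18 had a probe set of their own and 15 were tested. None of the 15 was called in either direction (limma), 0 had an unadjusted p under 0.05, and 10 were lower and 5 higher in knockouts with a median log2 difference of -0.04, where 50.7% of all tested probe sets were lower with a median of -0.002. Without knockout 6 the split was 5 lower and 10 higher. Thyroglobulin (Tg), the scaffold on which the hormones are made, read 13800, 12450 and 12500 on heterozygous and 11790, 13200 and 12640 on knockout arrays, with an interval of the log2 difference of -0.20 to 0.12. Slc5a5 had a log2 difference of 0.22 (interval -0.51 to 0.96) and the thyrotropin receptor Tshr of 0.07 (-0.43 to 0.56). The signs of all 3 turned with single arrays left out, with a range of -0.08 to 0.006 for Tg, -0.079 to 0.475 for Slc5a5 and -0.06 to 0.296 for Tshr.

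The function genes with the smallest unadjusted p were Kcnq1, Cdh16, Slc16a10 and Duoxa2. The potassium channel Kcnq1 read 92.0, 78.2 and 83.2 on heterozygous and 119.5, 104.7 and 92.1 on knockout arrays, so the groups did not overlap, with knockout 6 just above the highest heterozygous array. Its log2 difference was 0.27 with an interval of -0.18 to 0.72. Cdh16, a cadherin of kidney and thyroid that Pax8 activates, gave -0.26 (interval -0.82 to 0.30), and -0.007 without knockout 6 and -0.499 without knockout 2. The hormone and amino acid transporter Slc16a10 gave -0.17 (0.006 without knockout 6) and the oxidase maturation factor Duoxa2 gave 0.11 (0.016 without heterozygous 5), and all 4 had an adjusted p of 1.0 (limma).

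**Figure D3:**
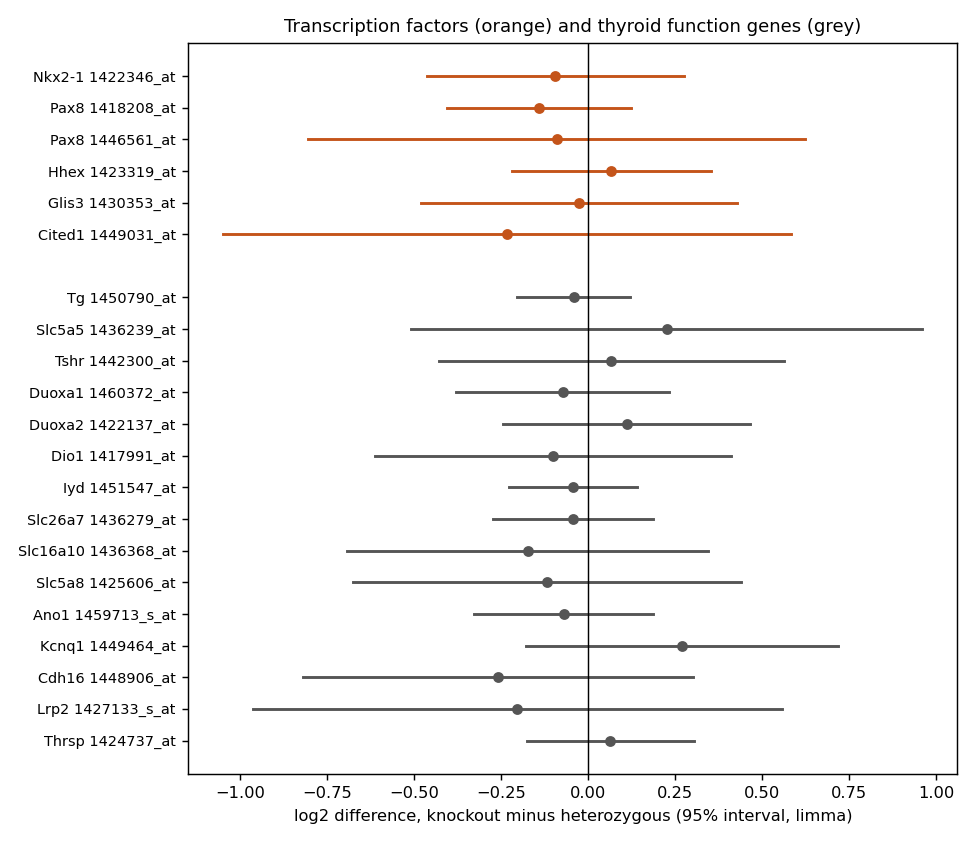
Log2 difference of knockout minus heterozygous samples with its 95% interval (limma, 3 arrays against 3) for the 6 factor probe sets in orange and 15 thyroid function genes in grey. Every interval includes 0; among the factors Pax8 1418208_at has the narrowest (-0.41 to 0.12) and Cited1 the widest (-1.05 to 0.58).

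Genes listed as cofactors of the thyroid factors were not called by genotype. Of 20 listed, 18 were tested and 0 were called in either direction (limma), with 12 lower, 6 higher, a median of -0.04 and log2 differences from -0.21 to 0.36. Without knockout 6 the split was 9 lower and 9 higher with a median of -0.008. The ends of the range were Kcnip3, a calcium-dependent repressor, with an interval of -0.66 to 0.23, and Cdca8, with an interval of -0.53 to 1.26. Cdca8 is a chromosomal passenger protein, and nothing measured here makes it a cofactor, so the upper end of the range is not that of an established one. The value of Cdca8 was -0.006 without heterozygous 1 and 0.019 without knockout 4, and that of Kcnip3 was -0.105 without heterozygous 1 and -0.109 without knockout 6. Yap1, the paralogue of the Nkx2-1 and Pax8 coactivator Wwtr1, had the smallest unadjusted p. It read 2288, 2210 and 2233 on heterozygous and 2129, 2024 and 1759 on knockout arrays without overlap, a log2 difference of -0.19 with an interval of -0.42 to 0.04 that was -0.11 without knockout 6. Apex1, a redox activator of Pax8 and Nkx2-1, gave 0.10 (interval -0.10 to 0.29), which was 0.053 without heterozygous 5 and 0.058 without knockout 6. The Cited1 partners Ep300 and Crebbp gave 0.07 and -0.09, and Wwtr1 itself -0.07 (limma, adjusted p = 1.0 for each).

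Relatives of the factors that mark other organs or pharyngeal tissue were partly under the filter. Of 15 relatives listed, 14 had a probe set and 8 were tested, 4 with a lower and 4 with a higher knockout mean, a median of 0.005 and 0 calls (limma). Single arrays move this balance, to 6 lower and 2 higher with a median of -0.263 without knockout 2, and to a median of -0.12 without heterozygous 1 and 0.11 without knockout 6. The heart factor Nkx2-5 and the B cell factor Pax5 were under background on all 6 arrays. Pax9, a pharyngeal pouch factor, had the smallest unadjusted p. It read 1286, 1209 and 1174 on heterozygous and 1239, 817.4 and 409.2 on knockout arrays, where knockout 2 lay within the heterozygous range. Its log2 difference of -0.70 (interval -1.48 to 0.08) was -0.28 without knockout 6, the array with the lowest muscle markers, and -1.06 without knockout 2. The pouch and thymus factor Pax1, chosen after its values were seen, was under background on heterozygous 1 and knockout 6 (15.3 and 16.5) and read 165.4 to 334.2 on the other 4, and the parathyroid markers were lowest on the same pair of arrays. The part of tissue content in the Pax9 and Pax1 signals was not tested. Nkx2-3 gave 0.40 with an interval of -0.58 to 1.38, and this ranged from 0.091 without heterozygous 1 to 0.765 without heterozygous 3.

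Of 20 regulators of the thyroid bud and pharyngeal arches listed, 17 were tested. None was called in either direction (limma), and 0 had an unadjusted p under 0.05. The knockout mean was lower for 15 of the 17, with a median log2 difference of -0.12, where 50.7% of all tested probe sets were lower. Six4 had the smallest p, at 326.1, 352.5 and 280.8 on heterozygous and 369.4, 201.3 and 149.4 on knockout arrays, and its log2 difference of -0.48 was -0.21 without knockout 6 and -0.82 without knockout 2. Hoxa3, which patterns the third pharyngeal arch and pouch, gave -0.26 (interval -0.65 to 0.12), which was -0.122 without knockout 2 and -0.435 without knockout 4. Without heterozygous 1 or without knockout 6, 12 of the 17 were lower, with medians of -0.07 and -0.08, where 54.4% and 55.4% of all probe sets were lower. The median was -0.199 without knockout 2. The part of tissue content in the signals of this list was not tested, and the genes of the list need not vary independently of each other.

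The genes whose signal ran closest to each factor over the 6 arrays were found by the root mean square difference of centred log2 values, where 0 is an identical course. Ncoa3, a nuclear receptor coactivator, and Gramd4 were closest to Nkx2-1 (0.029 and 0.030, against a course of Nkx2-1 itself of 0.080). Pacs2 and Eppk1 were closest to the bright Pax8 probe set (0.038 and 0.043, against 0.14), and Plcl1 and Lmnb2 to Hhex (0.018 and 0.025, against 0.14). Mvd, an enzyme of sterol synthesis, and Mical2 were closest to Glis3 (0.032 and 0.033, against 0.24). Far2 and Tcerg1l were closest to Cited1 (0.081 and 0.084, against 0.44), and Tcerg1l read 313.3 on heterozygous 1 against 95.8 to 159.4 on the others. With 6 arrays and 27022 probe sets to choose from, such courses describe these arrays only.

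**Figure D4:**
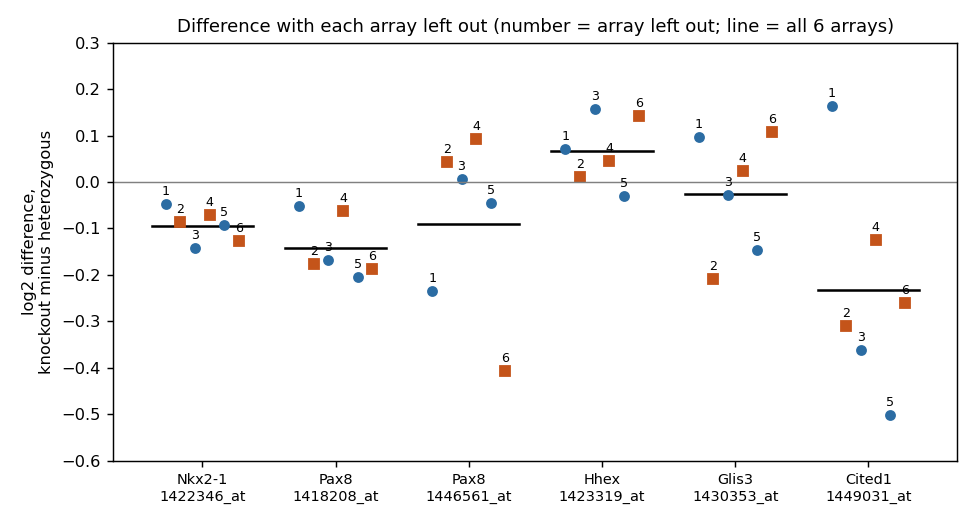
Log2 difference of knockout minus heterozygous samples for each factor probe set with 1 array left out at a time; the number is the array left out, circles heterozygous and squares knockout, and the black line is the value from all 6 arrays. Nkx2-1 and the bright Pax8 probe set stay below 0 throughout, while Cited1 moves to 0.16 without heterozygous 1 and the dim Pax8 probe set to -0.41 without knockout 6.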

How the data were processed

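Thyroid RNA of 6 mouse samples, 3 per genotype, was measured on arrays. The deposited values are signal intensities on a linear scale, 1 per probe set and array, made with GCOS per the submitters' processing notes; neither its version nor its settings were found in the labels. The trimmed mean (2% at each end) was 500.002 on all arrays, so they had been scaled to a common mean, which removes any change that moves most transcripts together.

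Values were analysed as log2(signal + 16.7), the pseudocount being the 25th percentile of all values, so folds of dim genes are understated. The 64 control probe sets were left out, and the 27022 of 45037 others whose mean lay above the 40th percentile (a signal of 43.5) were tested in R 4.3.3 with limma 3.58.1 (lmFit, eBayes with trend), with Benjamini-Hochberg adjustment over all of them. How this fit behaves when arrays differ in tissue content, as these did, was not tested. Of the 45101 probe sets, 34958 carried 1 symbol, 932 several and 9211 none, and only those with 1 are named. Each listed gene is given by its brightest tested probe set. Named were every factor probe set, Tg, Slc5a5 and Tshr with the 4 other function genes of smallest p, and 2 genes per further list and per likeness. Dio1, Cdca8, Kcnip3, Ep300, Crebbp, Wwtr1, Pax1, Nkx2-5 and Pax5 fall outside this rule and were chosen after their values were seen, as were the genes of the marker lists. The number of arrays limits the precision, and an exact permutation of 3 against 3 cannot go below 0.1. The members and lists were chosen with earlier results of these data known. Alternatives were other pseudocounts (0.25 and 4 times), quantile and cyclic loess normalization, no filter or the 60th percentile, no trend, array weights, Welch's method, the mean over a gene's probe sets and each array left out. Added after seeing the data were a block of consecutive sample numbers, scaling to the thyrocyte markers, and leaving out heterozygous 1 with knockout 6.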

Additional observations from a re-analysis of the deposited data

How the results depend on the processing

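No probe set was called under any of the 17 alternatives tried for the array as a whole, and no factor or listed gene either, with a smallest adjusted p of 0.928 over all probe sets (limma and Welch's method). Directions were less stable. With single arrays left out, the log2 difference ranged from -0.14 to -0.05 for Nkx2-1, from -0.20 to -0.05 for Pax8 1418208_at, from -0.41 to 0.094 for Pax8 1446561_at, from -0.030 to 0.16 for Hhex, from -0.21 to 0.11 for Glis3 and from -0.50 to 0.16 for Cited1. It turned positive for Pax8 1446561_at without knockout 2 (0.04), heterozygous 3 (0.007) or knockout 4 (0.094), for Glis3 without heterozygous 1 (0.10), knockout 4 (0.02) or knockout 6 (0.11), and for Cited1 without heterozygous 1 (0.16). It turned negative for Hhex without heterozygous 5 (-0.030). With heterozygous 1 and knockout 6 both left out it was positive for Glis3 (0.23) and Cited1 (0.14), and -0.55 for Pax8 1446561_at. Other settings kept the signs. At the 60th percentile Nkx2-1, Cited1 and Pax8 1446561_at fell under the filter.

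The labels give the groups no shared sample number and so no pairing. With neighbouring numbers (1 with 2, 3 with 4, 5 with 6) as a replicate block, all differences kept their values, the interval of Glis3 narrowed to -0.29 to 0.24, and 0 probe sets were called. Deviations from the group means correlated by 0.265, -0.206 and 0.144 within these pairs over 27022 probe sets, so the numbers were not taken as pairs. Scaled to the thyrocyte markers, Glis3 gave -0.01 (interval -0.41 to 0.38). Probe sets near the background of 22.9 limit Cited1 and the dim Pax8 probe set most.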
